A study of Mus musculus with 4 samples.

Results

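The E2F transcription factors and the pocket proteins were followed in RNA-seq of mouse hearts at postnatal day 7 (P7). The family was taken by gene symbol and holds 10 genes of the 24454 in the count table, namely *E2f1*, *E2f2*, *E2f3*, *E2f4*, *E2f6*, *E2f7*, *E2f8*, *Rb1*, *Rbl1* and *Rbl2*. All 10 passed the filter on low counts. Ctrl hearts (libraries WH7 and WH8) came from *miR-128*TetRE mice, which carry *miR-128* behind a tetO promoter at the Rosa26 locus but no activator. The *miR-128*OE hearts (WH9 and WH10) came from *α-MHC*-tTA; *miR-128*TetRE mice, in which the tetracycline-controlled activator tTA is made in cardiomyocytes (CMs) and drives *miR-128*. All mice were on a C57BL/6 background. Ctrl mice therefore lack tTA as well as the extra *miR-128*, and the use of doxycycline, which silences the transgene, is not stated for these hearts. Whole hearts hold many cell types, so a lower value can reflect fewer cells that make an RNA or less RNA per cell, which cannot be told apart.

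E2F proteins bind DNA at the promoters of genes for the G1 to S transition and DNA synthesis. E2F1, E2F2 and E2F3 are the activators, E2F4 is the main repressor of resting cells, E2F6 represses together with polycomb proteins, and E2F7 and E2F8 are atypical repressors that bind DNA without a DP partner. The pocket proteins RB1, RBL1 (p107) and RBL2 (p130) hold E2F complexes in a repressive state until cyclin-dependent kinases phosphorylate them, and RB1 and RBL2 are known for keeping postnatal CMs out of the cell cycle. *E2f3* has been described as a *miR-128* target in glioma cells.

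The sequences shown first are the seed of *miR-128* and the matches to it in the 3′UTRs of these genes. Whether *miR-128* acts at these matches was not tested. The mature *miR-128-3p* (RefSeq, GRCm38.p6, from both of its loci) is shown with the seed, bases 2 to 8, in capitals.
miR-128-3p: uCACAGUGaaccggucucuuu

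Matches were searched as CACTGTG (7mer-m8) or ACTGTGA (7mer-A1) in the longest 3′UTR of each gene in GENCODE M21 of GRCm38. They are shown on the gene's strand with the match in capitals, because *E2f3* is the gene of the family with the most of them. A match that fulfils both definitions is an 8mer.
E2f3, nearest to the stop codon: cgaggagctccCACTGTGtctgggggttg
E2f3, middle: ttctccgaatcCACTGTGAgtgggtgagtt
E2f3, farthest: tactggaaatgCACTGTGgggttttttcc
E2f1: cccacactgcgCACTGTGtgcctggggtg
E2f6: actgtgggacaCACTGTGAcacactacaac
E2f7: agaccaaaataACTGTGAatgctacacct

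The *E2f3* matches lie on the minus strand of chromosome 13 at 29908614 to 29908620, 29908562 to 29908569 and 29907866 to 29907872, within a 3′UTR of 3328 bases. The *E2f6* match lies in a long transcript, at 16839593 on chromosome 12, past the end of the RefSeq gene at 16826752. *E2f2*, *E2f4*, *E2f8*, *Rb1*, *Rbl1* and *Rbl2* hold 0 matches. Thus 4 of the 10 genes hold a match, against 33.2% of the 13465 tested genes with a 3′UTR. At least 3 matches are found in 411 of these genes (3.05%).

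Within the family, *E2f2* was lower and *E2f3* was higher in *miR-128*OE hearts, and the other 8 genes did not pass the threshold (adjusted p under 0.05 by the quasi-likelihood test of edgeR, with Benjamini-Hochberg correction across the 14266 genes tested). So 1 of 10 genes was called higher and 1 of 10 lower. Among all tested genes 31.5% were called, 16.5% higher and 15% lower, so the share called in the family was no larger than in all genes. The balance of directions over all genes moved with the scaling. TMM factors gave 2347 higher and 2143 lower genes, scaling by library totals gave 1611 and 2948, and the planned offset for GC content and length gave 3251 and 1316, which a version on TMM-scaled values, added later, brought to 2154 and 1977. The libraries of the groups did not overlap for 7 of the 10 genes, against 68.1% of all tested genes. The median size of the log2 fold change, sign removed, was 0.27 for the family and 0.30 for all genes.

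The libraries held 8096870 to 14359838 counts, and the 10 genes had 91 to 583 counts in a library. The hairpin gene *Mir128-1* was listed at 0 throughout, whereas *Mir128-2* was at 0 in both Ctrl libraries, 2 in WH9 and 10 in WH10, too low to test the overexpression itself. The groups also differed in sex markers, with 11339 to 14543 counts of *Xist* in Ctrl against 94 to 132 with the transgene, and 7 to 13 counts of the Y-linked *Ddx3y* against 1442 to 1768. *Eif2s3y*, *Kdm5d* and *Uty* separated the groups in the same way. Sex and transgene cannot be told apart here. All 10 genes are autosomal. Atrial myocyte markers (*Myl7*, *Myl4*, *Sln*, *Nppa* and *Bmp10*) summed to 5880 CPM (counts relative to library size) in WH7 and 701 in WH8, and to 2110 and 2710 in WH9 and WH10, so the Ctrl hearts differed in atrial RNA. The labels do not say whether the 2 libraries of a group came from separate animals, so p-values measure the spread between these libraries only.

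*E2f2* (chromosome 4 of GRCm38, 136172274 to 136196057), an activator, was counted 156 times in WH7 and 98 times in WH8 (Ctrl), against 92 in WH9 and 100 in WH10 (*miR-128*OE). After TMM scaling (trimmed mean of M values) these were 12.1 and 11.8 CPM in Ctrl and 7.74 and 7.14 CPM in *miR-128*OE hearts. Neither transgenic library reached either Ctrl library, and the gap was wider than the spread within a group. The level fell from 11.9 ± 0.249 CPM (SD, n = 2) to 7.44 ± 0.419 CPM (SD, n = 2), and its log2 fold change was −0.69 (standard error 0.17, 95% interval −1.08 to −0.29, adjusted p = 0.0157 by edgeR). The call was lost with DESeq2 (adjusted p = 0.084). It was also lost when WH9 (adjusted p = 0.0852) or WH10 (adjusted p = 0.118) was left out.

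*E2f3* (chromosome 13, 29906575 to 29986064), the activator with 3 seed matches, was counted 300 times in WH7 and 177 times in WH8, against 376 in WH9 and 417 in WH10. These were 23.3 and 21.2 CPM in Ctrl and 31.6 and 29.8 CPM in *miR-128*OE hearts. WH9 and WH10 each exceeded WH7 and WH8. The level rose from 22.3 ± 1.45 CPM (SD, n = 2) to 30.7 ± 1.29 CPM (SD, n = 2), and its log2 fold change was 0.46 (standard error 0.12, 95% interval 0.19 to 0.72, adjusted p = 0.0159 by edgeR). Of the 411 tested genes with at least 3 seed matches, 53 were called higher and 80 lower, and *E2f3* is among the 53. Over all tested genes, 16.5% were called higher and 15% lower. The call of *E2f3* was lost with DESeq2 (adjusted p = 0.0595), without WH9 (adjusted p = 0.135) and without WH10 (adjusted p = 0.0669). The counts are per gene, so the long and short forms E2F3A and E2F3B, made from separate promoters, were not resolved.

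*E2f1* (chromosome 2, 154559400 to 154569892), the remaining activator, had 295, 189, 268 and 318 counts in WH7, WH8, WH9 and WH10. Its scaled levels were 22.9 and 22.7 CPM in Ctrl and 22.5 and 22.7 CPM in *miR-128*OE hearts, and the groups overlapped. The log2 fold change was −0.01, with a 95% interval of −0.27 to 0.25 (adjusted p = 0.951 by edgeR).

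**Figure D1:**
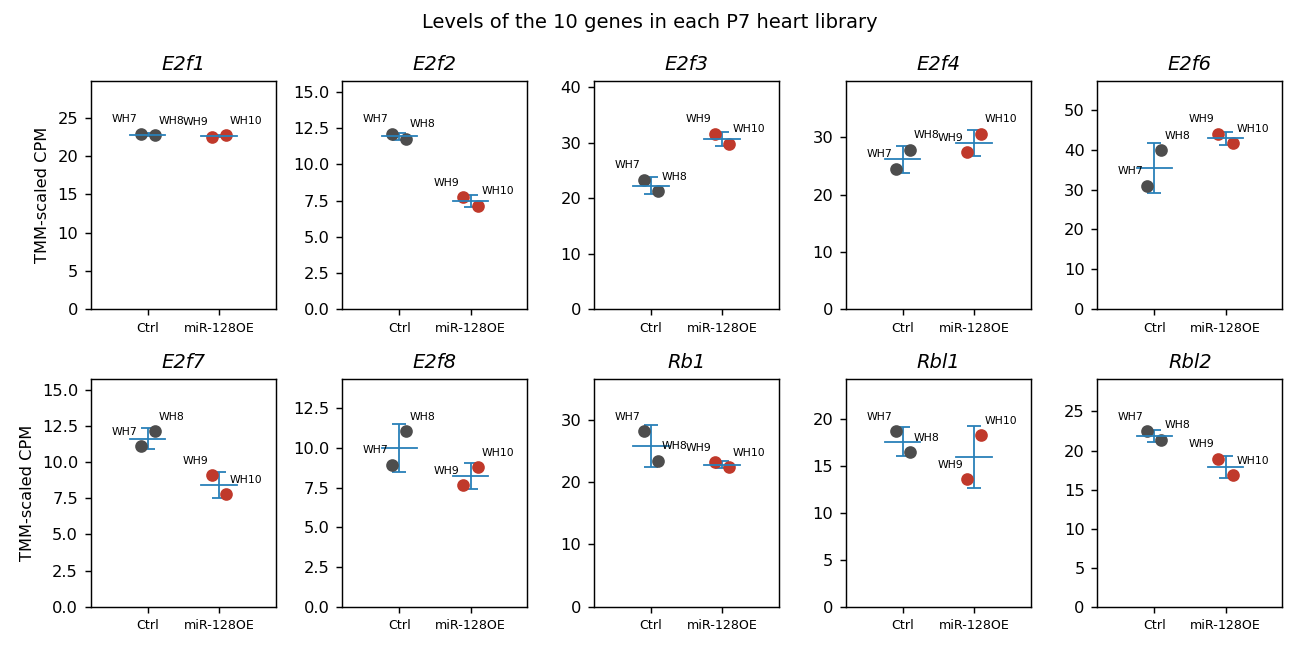
TMM-scaled CPM (y axis, from 0) of the 10 genes in each P7 heart library, with Ctrl in grey and *miR-128*OE in red. Blue bars give the mean and SD of 2 libraries. The groups stand apart most widely for *E2f2*, at 11.8 to 12.1 against 7.14 to 7.74 CPM, and for *E2f3*, at 21.2 to 23.3 against 29.8 to 31.6 CPM, whereas *E2f1* is level.

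The activators were also set against each other within each library, where the scaling between libraries cancels and a gene's length is the same in each. As raw counts these ratios do not compare levels per length. The ratio of *E2f3* to *E2f2* counts was 1.92 in WH7 and 1.81 in WH8, and 4.09 in WH9 and 4.17 in WH10. The ratios of the transgenic hearts were far above those of Ctrl, and replicates lay close together. The ratio of *E2f3* to *E2f1* was 1.02 and 0.937 in Ctrl against 1.40 and 1.31 in *miR-128*OE hearts. The ratio of *E2f2* to *E2f1* was 0.529 and 0.519 in Ctrl against 0.343 and 0.314 in *miR-128*OE hearts. These ratios restate the single-gene differences and were not tested.

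**Figure D2:**
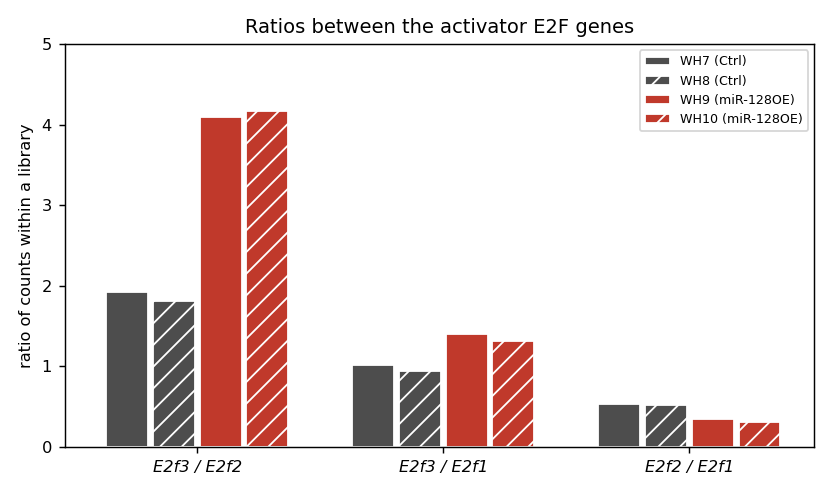
Ratio of counts (y axis, from 0) between activator E2F genes within each library, with Ctrl in grey, *miR-128*OE in red and hatching for the second library of a group. The *E2f3* to *E2f2* ratio stands at 1.81 to 1.92 in Ctrl and 4.09 to 4.17 in *miR-128*OE libraries.

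Among the repressors, *E2f4* (chromosome 8, 105297663 to 105305370) had 24.5 and 27.9 CPM in Ctrl and 27.4 and 30.6 CPM in *miR-128*OE hearts, with a log2 fold change of 0.16 (95% interval −0.12 to 0.43, adjusted p = 0.36 by edgeR). Its groups overlapped. *E2f6* (chromosome 12, 16810909 to 16826752) had 31.0 and 39.9 CPM in Ctrl and 44.1 and 41.7 CPM in *miR-128*OE hearts. WH9 and WH10 each exceeded WH7 and WH8, but WH7 and WH8 differed from each other more than WH8 differed from WH10. The log2 fold change was 0.29 (95% interval −0.00099 to 0.57, adjusted p = 0.118 by edgeR). It was 0.47 without WH8 and 0.10 without WH7. With all 4 libraries, the gene was called without the filter on low counts (adjusted p = 0.0431 by edgeR). It was also called with the planned offset for GC content and length (adjusted p = 0.0282 by edgeR). It was not called with total counts (log2 fold change 0.19, adjusted p = 0.283 by edgeR) or with DESeq2 (adjusted p = 0.247).

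*E2f7* (chromosome 10, 110745439 to 110787384) was counted 143 times in WH7, 101 in WH8, 108 in WH9 and 109 in WH10. These were 11.1 and 12.1 CPM against 9.08 and 7.79 CPM, with no overlap. The log2 fold change was −0.46 (95% interval −0.86 to −0.06, adjusted p = 0.0783 by edgeR). Total counts in place of TMM factors gave −0.56 (adjusted p = 0.0381 by edgeR), but also moved the median of all genes to −0.11. With the planned offset for GC content and length, *E2f7* was at −0.27 (adjusted p = 0.291 by edgeR), and DESeq2 gave an adjusted p of 0.29. *E2f8* (chromosome 7, 48866429 to 48882073) had 8.93 and 11.045 CPM in Ctrl and 7.65 and 8.79 CPM in *miR-128*OE hearts, with a log2 fold change of −0.26 (95% interval −0.70 to 0.18, adjusted p = 0.334 by edgeR). Exons of *E2f7* and *E2f8* overlap antisense transcripts in GENCODE. The one at *E2f7*, *1700020G17Rik*, had 0 counts in all 4 libraries.

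Of the pocket proteins, *Rb1* (chromosome 14, 73192858 to 73325951) had 28.1 and 23.4 CPM in Ctrl and 23.2 and 22.4 CPM in *miR-128*OE hearts. WH7 stood above the other 3 libraries, which lay close together. The log2 fold change was −0.19 (95% interval −0.48 to 0.10, adjusted p = 0.30 by edgeR). *Rbl1* (chromosome 2, 157145893 to 157204534) had 18.6 and 16.4 CPM in Ctrl and 13.5 and 18.2 CPM in *miR-128*OE hearts, with a log2 fold change of −0.15 (95% interval −0.53 to 0.24, adjusted p = 0.547 by edgeR). The *miR-128*OE libraries lay on either side of WH8, and without WH9 the log2 fold change was 0.06. *Rbl2* (chromosome 8, 91070057 to 91123844) had 22.4 and 21.4 CPM in Ctrl and 18.9 and 16.9 CPM in *miR-128*OE hearts, with no overlap. Its log2 fold change was −0.30 (95% interval −0.59 to −0.005, adjusted p = 0.111 by edgeR). Total counts, which moved the median of all genes to −0.11, gave −0.40 (adjusted p = 0.0419 by edgeR). With the planned offset for GC content and length, *Rbl2* was at −0.13 (adjusted p = 0.499 by edgeR), and DESeq2 gave an adjusted p of 0.382.

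Exons of *Rb1* overlap those of *Lpar6* and *Rcbtb2*, and exons of *Rbl2* overlap those of *Aktip*, in each case on the opposite strand. The handling of strand is not stated, so reads in these stretches cannot be assigned to either gene with certainty. *Lpar6*, which encodes a lysophosphatidic acid receptor, was counted 296, 203, 212 and 241 times in WH7, WH8, WH9 and WH10 (log2 fold change −0.43, adjusted p = 0.0261 by edgeR). For *Aktip* it was −0.03 (adjusted p = 0.882 by edgeR).

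**Figure D3:**
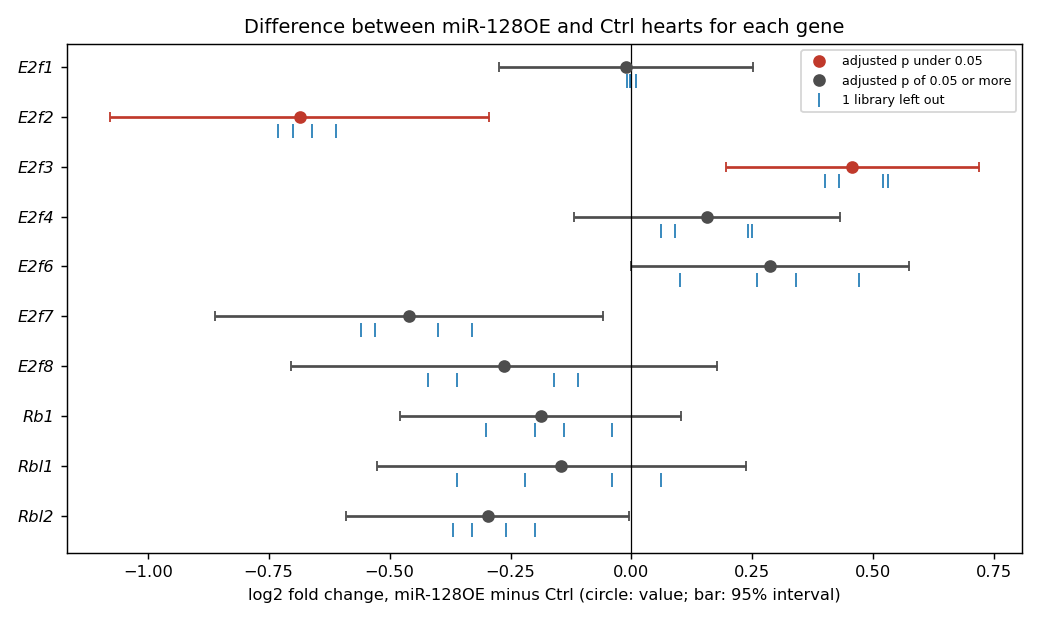
Log2 fold change (x axis) of each gene between *miR-128*OE and Ctrl hearts, with the 95% interval as a bar, red where the adjusted p was under 0.05 and grey otherwise. Blue ticks give the value with 1 library left out. The *E2f2* and *E2f3* intervals lie wholly on opposite sides of 0, and the ticks of *E2f6* spread from 0.10 to 0.47.

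Activators were then set against repressors as the difference of their mean log2 CPM in each library, of which only the change between libraries can be read. For E2F1 to E2F3 genes minus *E2f4*, *E2f6*, *E2f7* and *E2f8*, the difference was 0.17 in WH7, −0.14 in WH8, 0.05 in WH9 and −0.02 in WH10. The mean was 0.01 in both groups, with an SD between replicates of 0.157, and the groups overlapped. The shift between groups was 0.15 without WH7 and −0.15 without WH8, so the near-equal means rest on Ctrl libraries that lay on opposite sides. Against the pocket proteins, it was −0.28 and −0.18 in Ctrl against −0.03 in WH9 and −0.16 in WH10, a shift of 0.13 with an SD of 0.085. No test was made, since the members were chosen with results known. The opposite changes of *E2f2* and *E2f3* sit inside the same activator mean, and *E2f6* and *E2f7* had log2 fold changes of 0.29 and −0.46 inside the repressor mean.

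Levels were compared between genes per kilobase of annotated exon in Ctrl hearts. *E2f4* led with 10.7 ± 0.953 CPM per kb (SD, n = 2), followed by *E2f1* at 7.23 ± 0.0504, *E2f6* at 6.26 ± 1.11, *Rb1* at 4.28 ± 0.554 and *E2f3* at 4.10 ± 0.268. *Rbl1* (2.93 ± 0.259), *Rbl2* (2.90 ± 0.101), *E2f2* (2.45 ± 0.0511), *E2f8* (1.84 ± 0.274) and *E2f7* (1.29 ± 0.0798) were lower, in CPM per kb with the SD of 2 libraries. The Ctrl libraries of neighbours in this order overlapped for *Rb1* and *E2f3* and for *Rbl1* and *Rbl2*. Thus the most abundant E2F mRNA per length was the repressor *E2f4*, and the atypical repressors were the scarcest. The order depends on the length taken, since *E2f6* had 38.0 CPM per kb of coding length and *E2f4* 21.3.

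Genes outside the list complete the complexes. *E2f5*, another repressor of the E2F family, had a difference of −0.21 on the log2 scale (adjusted p = 0.351 by edgeR). The DP partners *Tfdp1* and *Tfdp2* each had a log2 fold change of −0.05, with 95% intervals of −0.23 to 0.13 and −0.31 to 0.20. The MuvB core (*Lin9*, *Lin37*, *Lin52*, *Lin54* and *Rbbp4*) forms the repressive DREAM complex with RBL1 or RBL2 and E2F4, and activating complexes with MYBL1, MYBL2 or FOXM1. Of these 8 genes, 1 was called higher and 0 lower, and the median log2 fold change was −0.27 against −0.01 for all genes. The gene that rose was *Rbbp4*, a histone chaperone shared with many other complexes (log2 fold change 0.25, adjusted p = 0.0387 by edgeR). The count of higher genes was 0 with upper-quartile factors, total counts or DESeq2 and without WH8, WH9 or WH10, and 3 were lower without WH7 and 2 with total counts. *Foxm1* (−0.44, adjusted p = 0.0597) and *Mybl2* (−0.45, adjusted p = 0.0825 by edgeR), which encode activators of the G2 and M phase genes, did not pass the threshold. Neither did *Lin9* (−0.45), *Mybl1* (−0.33), *Lin37* (−0.21), *Lin54* (−0.19) or *Lin52* (0.18).

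A list of 13 genes held the cyclins and kinases of G1 and S phase, many of which phosphorylate pocket proteins, with the phosphatase gene *Cdc25a* and the genes of the CDK-activating kinase, *Ccnh* and *Cdk7*. Of these, 5 fell and 0 rose, against 15% lower and 16.5% higher among all genes, and the median log2 fold change was −0.27. These were *Cdk6* (log2 fold change −0.56, adjusted p = 0.00259), *Cdk2* (−0.40), *Ccna2* (−0.50), *Ccne2* (−0.98) and *Ccnd1* (−0.27, adjusted p = 0.0369 by edgeR). Without WH9 this count was 0, without WH10 it was 1, with DESeq2 or the planned offset for GC content and length 3, and with total counts 8. That offset also called 2 of the 13 higher, and 1 was higher without WH7 or without the filter on low counts. *Cdk6* had 100.2 and 111.1 CPM in Ctrl and 66.9 and 76.4 CPM in *miR-128*OE hearts, whereas *Cdk4* overlapped between groups (log2 fold change 0.04, adjusted p = 0.801 by edgeR). *Ccnd3* (0.25, adjusted p = 0.0545) and *Ccnd2* (0.08, adjusted p = 0.473 by edgeR) did not pass. *Ccne1*, which like *Ccne2* encodes an E-type cyclin, had 5.67 and 5.04 CPM in Ctrl and 6.31 and 6.79 CPM in *miR-128*OE hearts, without overlap (0.28, adjusted p = 0.363 by edgeR). Values for *Cdk3* (−0.92), *Cdc25a* (−0.28), *Cdk7* (−0.20) and *Ccnh* (0.07) did not pass either. Of 7 CDK inhibitor genes, 5 were tested and *Cdkn1a*, which encodes p21, was higher, from 54.0 ± 2.70 to 72.2 ± 0.921 CPM (SD, n = 2), a log2 fold change of 0.42 (adjusted p = 0.00603 by edgeR). The count of higher inhibitor genes was 0 without WH9 and 0 without WH10, and 2 without WH8. *Cdkn1b*, which encodes p27, had 47.8 and 48.6 CPM in Ctrl and 53.6 and 52.8 CPM in *miR-128*OE hearts. These did not overlap, but the difference did not pass (log2 fold change 0.14, 95% interval −0.05 to 0.34, adjusted p = 0.246 by edgeR). *Cdkn2d* (0.31, adjusted p = 0.0913), *Cdkn1c* (0.03) and *Cdkn2c* (−0.01, adjusted p = 0.963 by edgeR) did not pass. *Cdkn2a* and *Cdkn2b* were too low to test, at 2 to 11 counts in a library.

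The lists of partners that carry out repression held called genes in both directions. Of 14 genes listed as corepressors of the pocket proteins, 7 fell and 1 rose, against 15% lower and 16.5% higher among all genes, and the median log2 fold change was −0.30. The lower genes with the smallest p-values were *Hdac1*, a histone deacetylase (log2 fold change −0.72, adjusted p = 0.000482), *Arid4a* (−0.59), the histone demethylase *Kdm5a* (−0.47), the remodeler ATPase *Smarca4* (−0.39) and *Rb1cc1* (−0.39, adjusted p = 0.00676 by edgeR). *Rb1cc1* is best known as an autophagy gene. The higher gene was *Rbbp7*, on the X chromosome (0.28, adjusted p = 0.024 by edgeR). The count of lower genes was 2 without WH9 and 3 without WH10, and the planned offset for GC content and length gave 3 lower and 2 higher. *Rbbp7* was not called without WH9, without WH10 or with total counts. Of the 10 partners of E2F6 in the polycomb complex PRC1.6, *Max* (0.38) and *Yaf2* (0.40) were higher, and *Mga* (−0.49, adjusted p = 0.00254) and *Ring1* (−0.44, adjusted p = 0.0262 by edgeR) were lower. These counts, 2 higher and 2 lower of 10, lay near the shares among all genes. Without WH9, 0 were higher and 0 lower, and without WH10, 0 and 1. The count of lower genes was 1 without WH7 and with DESeq2, and 4 with upper-quartile factors or total counts.

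Genes described as targets of the family were called lower in large number. Of 54 G1/S genes listed as E2F targets, 30 were called lower and 0 higher, against 15% called lower among all genes, and their median log2 fold change was −0.44. The list was drawn up with the lower cell cycle genes of these hearts already known, so it is no independent evidence of a direction. The 5 lower genes with the smallest p-values were *Mcm6*, a helicase subunit (log2 fold change −0.999), *Wdhd1*, a replication fork protein (−1.55), the DNA ligase gene *Lig1* (−0.71), *Ezh2* (−0.58) and the polymerase gene *Pold1* (−0.86), with adjusted p-values from 0.00015 to 0.00157 in the edgeR test. Of 40 G2/M genes bound by MYBL2 and FOXM1, 22 fell and 0 rose, and the median was −0.58. They were led by *Mki67* (−1.15), *Cenpe* (−1.24), *Cenpf* (−1.16), *Kif11* (−1.09) and *Top2a* (−0.68). The lists are not separate sets. The G1/S list shares *Ccne1*, *Ccne2* and *Cdc25a* with the cyclin list and *Rbbp8* with the corepressor list, and the G2/M list shares *Ccna2* with the cyclin list. Without WH9, 15 G1/S and 11 G2/M genes were lower, and without WH10, 12 and 14.

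**Figure D4:**
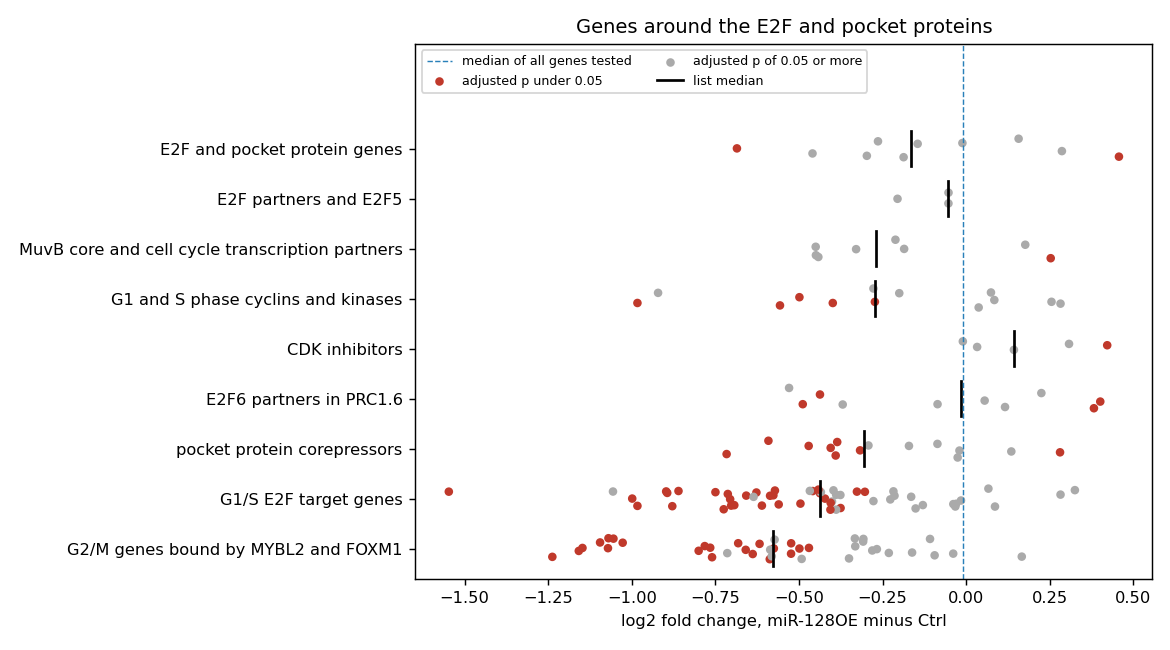
Log2 fold change (x axis) between *miR-128*OE and Ctrl hearts for the E2F and pocket protein genes and for lists around them, 1 point per tested gene, red where the adjusted p was under 0.05. Black bars are list medians and the dashed line is the median of all genes, at −0.01. The G1/S targets and the G2/M genes lie mostly left of 0, with medians of −0.44 and −0.58, while the family itself holds 1 red point on either side.

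Several genes of the family are known to be under E2F control themselves, so promoters (250 bases before to 50 after each start, RefSeq, GRCm38.p6) were searched on both strands for the E2F motif, spelled TTTCCCGC, TTTCGCGC, TTTGCCGC or TTTGGCGC, and for the CHR element bound by the MuvB complex, spelled TTTGAA or TTCGAA. Promoters were found for 8 of the 10 genes, not for *E2f4* or *Rb1*. The windows for *E2f1* (chr2:154569377-154569676) and *E2f8* (chr7:48881547-48881846) lie inside these genes, whose 5′ ends are at 154569892 and 48882073. The sequence upstream of those 5′ ends was not searched, so the motif results of *E2f1* and *E2f8* do not describe it. The E2F motif was held by 4 of the 8 (*E2f2*, *E2f3*, *E2f7* and *Rbl1*), against 3.29% of the 18170 genes of the count table with a promoter. A CHR match was held by 4 of the 8 (*E2f2*, *E2f3*, *E2f8* and *Rbl2*), against 19.6%. For *E2f2* the CHR match was at another listed start inside the gene (chr4:136180532-136180831), which held 0 E2F matches. The *E2f2* promoter with the E2F match held 0 CHR matches. Of the G1/S targets with a promoter, 48.8% held the E2F motif, and of the G2/M genes 78.1% held a CHR match. The stretches of 60 bases around the E2F matches are shown because 2 of them belong to the genes that changed. They are on the gene's strand with the match in capitals, from chr4:136172264-136172323, chr13:29986041-29986100, chr10:110745215-110745274 and chr2:157204519-157204578.
E2f2: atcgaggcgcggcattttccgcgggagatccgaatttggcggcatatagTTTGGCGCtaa
E2f3: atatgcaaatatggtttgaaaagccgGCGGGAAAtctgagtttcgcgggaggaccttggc
E2f7: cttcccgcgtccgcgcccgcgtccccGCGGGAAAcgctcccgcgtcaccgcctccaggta
Rbl1: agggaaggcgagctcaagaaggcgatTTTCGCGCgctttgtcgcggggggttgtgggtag

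The match of *E2f2* starts 40 bases into the transcript, and those of *E2f3*, *Rbl1* and *E2f7* start 11, 18 and 198 bases before it. Genes with the motif included *E2f2*, which fell, and *E2f3*, which rose. The other start listed for *E2f3* held 0 matches to either motif.

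Markers of cell types moved with the groups to different degrees. The 8 CM markers summed to 44400 and 47800 CPM in Ctrl and 53400 and 52700 CPM in *miR-128*OE hearts. Of these 8, 3 were higher and 2 lower, where 16.5% of all tested genes were called higher and 15% lower. Endothelial markers summed to 1390 to 1400 CPM in Ctrl and 1470 to 1580 CPM in *miR-128*OE hearts. Of these 6 markers, 2 were higher (*Pecam1* and *Cdh5*) and 1 lower (*Emcn*), with a median log2 fold change of −0.04. Markers of smooth muscle cells and pericytes summed to 1630 to 1680 CPM in Ctrl and 2170 to 2410 CPM in *miR-128*OE hearts. Of these 6, 2 were higher (*Acta2* at 0.94 and *Rgs5* at 0.29) and 1 lower (*Myh11* at −0.64), with a median of 0.05. Summed fibroblast (4460 to 6850 against 6210 to 6490 CPM), macrophage (70.9 to 103 against 80.3 to 82.5 CPM) and epicardial markers (54.7 to 117 against 63.7 to 72.9 CPM) overlapped. Of the 6 fibroblast markers, 1 was higher (*Lum* at 0.63) and 0 lower, with a median of 0.27. The macrophage and epicardial lists held 0 called genes, with medians of −0.12 and −0.62. The 7 erythroid markers, of interest because *E2f2* is active in red cell precursors, summed to 32.7 to 45.0 CPM in Ctrl and 71.7 to 78.4 CPM in *miR-128*OE hearts, mostly from *Alas2* (log2 fold change 1.05, adjusted p = 0.00106 by edgeR). The globin genes *Hba-a1*, *Hbb-bs* and *Hbb-bt* are listed at 0 in every library. The part of these markers, and of the lower proliferation genes, in the differences of *E2f2* and *E2f3* was not tested.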

How the data were processed

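RNA-seq of P7 hearts was used, with 2 Ctrl and 2 *miR-128*OE libraries. The deposited values are raw counts per gene, which the authors made from quality-filtered reads mapped to mm10 (GRCm38) by TopHat2. Gene models, strand and multiply mapped reads are not given in the sources used here. Of 24454 Entrez identifiers, 24374 matched a RefSeq symbol. Genes passing filterByExpr (minimum count 10, total 15) were tested with edgeR 4.0.16 in R 4.3.3 (TMM factors, quasi-likelihood test, prior degrees of freedom 7.44). The p-values were adjusted by Benjamini-Hochberg over 14266 genes. The study's methods name edgeR and its negative binomial model, but not this filter, these factors or this test. Standard errors are the log2 fold change over the square root of F, and intervals use its degrees of freedom. Normalized values are TMM-scaled CPM. Log2 CPM for means over genes used a prior count of 2. The common biological coefficient of variation was 8.78%. The script was tested on simulated data. A count of 3, the detection floor, equals 0.214 to 0.36 CPM, counting error only.

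The 10 genes and all lists were chosen with earlier results of these data known. Genes were named by a rule: the 10 genes, every gene of the partner, MuvB, cyclin and inhibitor lists, and in other lists the 3 higher and 5 lower genes with the smallest p-values past the threshold. Alternatives were DESeq2 1.42.0, edgeR's exact test, other size factors and filters, a loess offset for GC content and length, and each library left out. A second form of that offset, on TMM-scaled CPM, was added after the values of the first were seen.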

Additional observations from a re-analysis of the deposited data

How the results depend on the processing

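The calls of *E2f2* and *E2f3* rest on both *miR-128*OE libraries and on edgeR. With DESeq2, 0 of the 10 genes were called higher and 0 lower, at log2 fold changes of −0.67 for *E2f2* and 0.47 for *E2f3*, and 1327 genes in all were lower, against 2143 in edgeR. With total counts, which shifted the median over all genes from −0.01 to −0.11 on the log2 scale, 3 of the 10 genes were lower, with *E2f7* at −0.56 and *Rbl2* at −0.40. Without the filter on low counts, *E2f6* was called at 0.30. The planned offset for GC content and length put the median of all genes at 0.10, with 1316 genes lower, 2 of the 10 genes higher, *E2f6* called at 0.43 and *E2f1* at 0.05. Its smooth fit used CPM without TMM factors, so library scaling entered the fit more than once. A version on TMM-scaled CPM, centred per library, was chosen after seeing those values, and gave a median of −0.02, 1977 genes lower, 1 of the 10 genes higher, *E2f6* uncalled at 0.31 and *E2f1* at −0.07. When a library was left out, 897 to 2654 genes were higher and 667 to 2384 lower, and a lone library was assumed to vary like the rest. Of the 10 genes, 0 to 2 were then higher and 0 to 1 lower. The log2 fold change ran from −0.73 to −0.61 for *E2f2*, 0.40 to 0.53 for *E2f3*, 0.10 to 0.47 for *E2f6*, −0.01 to 0.01 for *E2f1* and −0.36 to 0.06 for *Rbl1*. *E2f1* and *Rbl1* thus changed sign without WH9. No paired analysis was possible because the labels carry no replicate numbers. The *E2f2* and *E2f3* calls were kept under the other scalings, both other filters, edgeR's exact test and both offsets, and without either Ctrl library. The causes of the losses were not tested.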
